A study of Homo sapiens with 24 samples.

Results

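Dexamethasone (Dex) treated MM1S cells were compared with untreated MM1S cells on 6 of the 24 arrays of the series, 3 per group, and are described across all genes measured. MM1S is an established glucocorticoid (GC) sensitive multiple myeloma cell line, a tumour of plasma cells. Cells received 1 µM of Dex, a synthetic GC, for 72 h or were left untreated. The replicates were separate experiments by the methods. The arrays were chosen by the labels alone: MM1S cells with Dex, and MM1S cells labelled untreated. As a further reference, 6 arrays of MM1R cells, the GC resistant subclone of MM1S, held the same pair of conditions. Each condition is therefore known from 1 cell line and its subclone, and the spread between arrays is that between cultures of the same cells.

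GC enter the cell and bind the glucocorticoid receptor (GR), encoded by NR3C1, which then moves to the nucleus and activates or represses genes through response elements in DNA or through contact with other transcription factors. Well known induced genes encode feedback inhibitors of signalling, such as GILZ (TSC22D3), and the chaperone partner FKBP5, which lowers the affinity of the receptor for hormone. In lymphoid and plasma cell tumours GC halt the cell cycle and induce apoptosis, which is why Dex is part of myeloma therapy.

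Values are the normalized log2 signals deposited by the authors, and a change is the difference of log2 means, Dex minus untreated, ± its standard error (SE). Between 19005 and 19647 of the 47224 probes lay over background (detection p-value under 0.05) on the Dex arrays and between 18561 and 19111 on the untreated arrays. Arrays of a group correlated with r between 0.9915 and 0.9968 across probes. The log2 difference between arrays had an SD of 0.13 to 0.212 within the Dex group, 0.147 to 0.176 within the untreated group and 0.349 to 0.421 between the groups. Dex replicate 3 was the array least like its group. In the check of the cell type all 10 plasma cell markers, among them SDC1, TNFRSF17 and XBP1, were over background on all 6 arrays. Of 12 markers of T and NK cells on the array none was over background on all 6 arrays and 8 were on none. Of the other markers 4 of 11 myeloid, 7 of 11 fibroblast and endothelial, 6 of 7 epithelial and 3 of 5 erythroid ones were over background on no array. The myeloid marker CD68, the endothelial marker PECAM1 and the erythroid marker HBB were over background on all 6 arrays. S100A9, a calcium-binding protein of myeloid cells, rose (1.06 ± 0.14, limma adjusted p = 1.71e-05), and PECAM1, an adhesion molecule of endothelial and some blood cells, fell (-0.97 ± 0.11). The share of cells in each state was not measured, so that for any gene fewer cells that express it and less RNA per cell cannot be told apart.

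Of 10774 genes measured, 322 (2.99%) changed over 2-fold in Dex treated cells at an adjusted p under 0.05 (limma with Benjamini-Hochberg adjustment over 19236 probes, n = 3 arrays per group). More genes fell than rose: 207 (1.92%) were lower and 115 (1.07%) were higher in Dex treated cells. With the arrays centred on their medians in place of quantile normalization the split was 155 lower and 140 higher genes, so that the share of rises among the changed genes was 47.5% against 35.7% with the authors' values. By the deposited values 13 genes rose over 4-fold while HES6 alone fell over 4-fold. Of the 13, BCL6 and CXCL13 met the background filter through their Dex arrays alone, and CXCL13 has a lower bound of 3.98-fold. Of the genes that rose over 2-fold, 5 lay below background on the untreated arrays. No gene that fell over 2-fold lay below background on the Dex arrays. The genes that rose had a median untreated signal of 8.77 and the genes that fell one of 10.07, beside 8.46 over all genes. A gene near background in untreated cells has little room to fall. At any fold 3263 genes (30.3%) passed the test, 1686 higher (15.6%) and 1577 lower (14.6%), or 2244 and 1103 with median centring. The median change over all genes was 0.02. The lists described below are read against these shares.

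**Figure D1:**
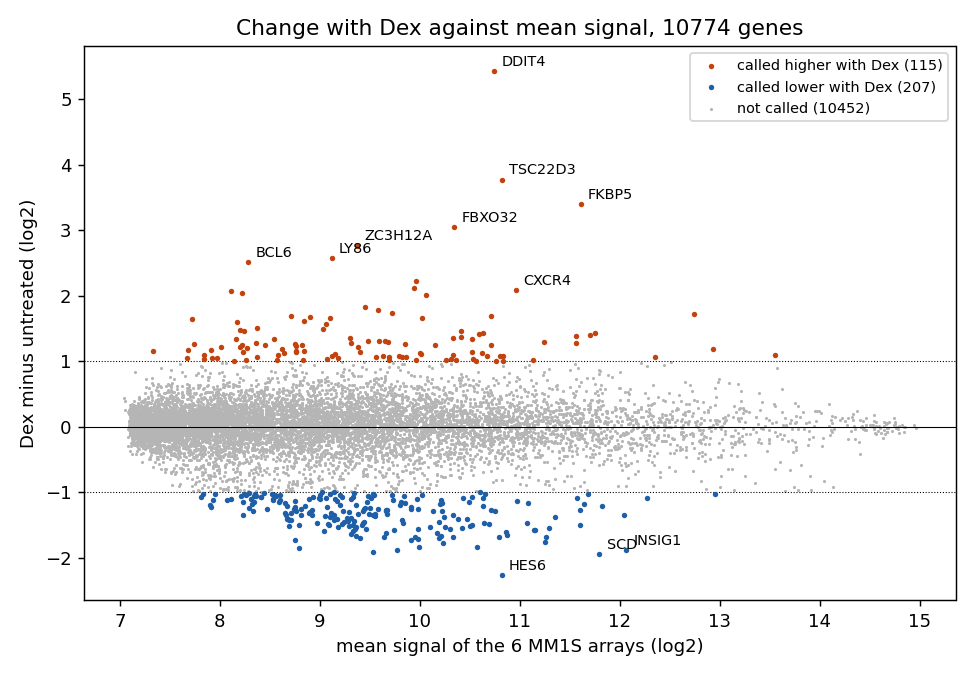
Change with Dex (Dex minus untreated, log2, y axis) of each of 10774 genes against its mean signal over the 6 MM1S arrays (log2, x axis); dotted lines mark 2-fold, orange points the 115 genes called higher and blue points the 207 called lower. DDIT4 stands highest at 5.43, and the largest fall, HES6, lies at -2.27.

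The 3 largest rises were those of DDIT4, TSC22D3 and FKBP5, all among the known targets of the GR. DDIT4 (REDD1), an inhibitor of mTORC1, read 13.45, 13.49 and 13.44 on the Dex arrays, against 8.07, 8.01 and 8.02 on the untreated arrays. This was the largest change of all genes, 43.2-fold (log2 5.43 ± 0.11, limma adjusted p = 3.02e-17), and about equal on all 3 Dex arrays. TSC22D3, the gene of GILZ, read 12.91, 12.81 and 12.40 on the Dex arrays, against 8.91, 9.01 and 8.88 on the untreated arrays. It rose 13.7-fold (3.77 ± 0.14), with Dex replicate 3 the lowest of its group, and its other probes changed by 2.27 and 4.01. FKBP5 read 13.41, 13.37 and 13.16 on the Dex arrays, against 9.77, 9.75 and 10.22 on the untreated arrays. Its rise was 10.5-fold (3.40 ± 0.14). Among 21 measured genes of the list of GR targets and feedback genes 12 rose and 1 fell (57.1% higher, against 15.6% of all genes), with a median change of 0.65. The rises include ZBTB16, which met the background filter through its Dex arrays alone. KLF9, a Kruppel-like repressor (1.70 ± 0.11), DUSP1, a phosphatase that switches off MAP kinases (1.31 ± 0.27), and TXNIP, an alpha-arrestin that limits glucose uptake (1.10 ± 0.18), rose over 2-fold. ZBTB16, a zinc finger repressor whose untreated signal lay below background, rose at least 2.15-fold, but its other probes read 0.18 and 0.76 and its probe no longer met the background filter once any of the 3 Dex arrays was left out. NFKBIA, the inhibitor that holds NF-kB in the cytoplasm, rose less (0.84 ± 0.15), as did TNFAIP3, a ubiquitin-editing brake on NF-kB (0.82 ± 0.12). The member that fell was FKBP4 (-0.49 ± 0.12), the co-chaperone that FKBP5 competes with on the receptor. NR3C1 itself read 7.76, 7.80 and 7.92 on the Dex arrays, against 7.92, 7.98 and 8.07 on the untreated arrays. The change was -0.16 ± 0.08 on this probe (adjusted p = 0.153) and 0.07 on the other, and neither passed. The highest Dex array and the lowest untreated array were level at 7.92.

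**Figure D2:**
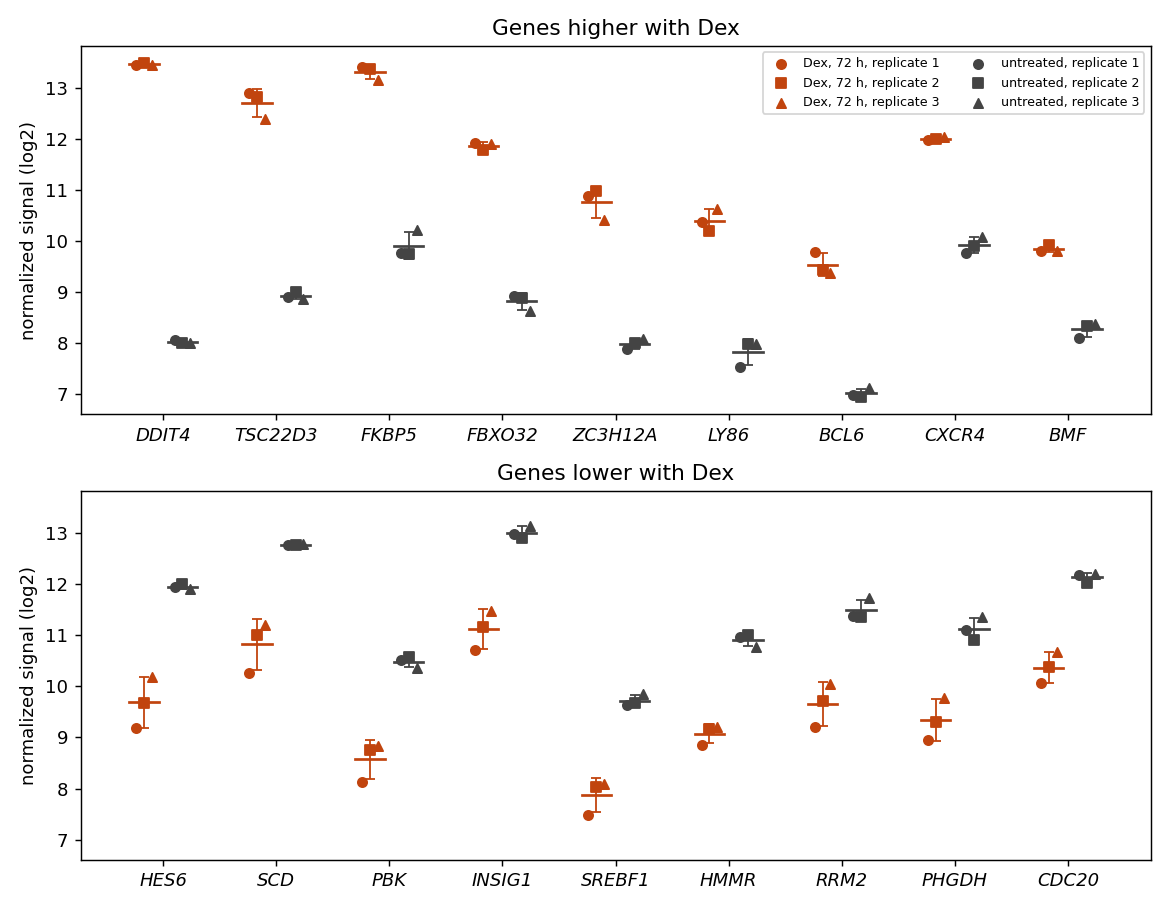
Normalized log2 signal (y axis) of 9 genes that were higher and 9 that were lower with Dex, by array; orange symbols are Dex treated and grey symbols untreated MM1S cells, circles, squares and triangles replicates 1, 2 and 3, and bars the mean ± SD. All 18 genes except BMF were picked among genes whose groups do not overlap, so that the gap between groups follows from the choice. All 9 lower genes are lowest on Dex replicate 1.

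Other brakes on growth factor signalling rose as well. Of 17 measured brakes on PI3K and mTOR 8 rose and 2 fell (47.1% and 11.8%, against 15.6% and 14.6% of all genes). PIK3IP1, a membrane protein that inhibits PI3K, read 11.14, 10.83 and 11.03 on the Dex arrays, against 8.88, 8.88 and 8.89 on the untreated arrays. This was a 4.34-fold rise (2.12 ± 0.11). SESN1, a sestrin that restrains mTORC1 when amino acids are scarce (1.44 ± 0.13), and DEPTOR, an mTOR-binding inhibitor that is abundant in some myelomas (0.93 ± 0.12), rose also. TBC1D7, the third subunit of the TSC complex, fell (-0.54 ± 0.09). Among 16 genes that drive the pathway IRS1 (0.83 ± 0.10) and IRS2 (0.59 ± 0.09), the adaptors of the insulin receptor, rose and none fell. The share of rises among these drivers, 12.5%, lay under the 15.6% of all genes. FBXO32 (atrogin-1), a ubiquitin ligase subunit known from muscle atrophy, read 11.91, 11.79 and 11.90 on the Dex arrays, against 8.93, 8.89 and 8.64 on the untreated arrays. It rose 8.27-fold (3.05 ± 0.11), and its other probes read 2.79 and 0.89. The FOXO factors and their related genes were mixed otherwise, with 5 of 12 higher and 1 lower. CITED2, a coactivator partner of CBP (0.71 ± 0.15), and KLF15 (0.51 ± 0.11) rose and SOD2, the mitochondrial superoxide dismutase, fell (-0.50 ± 0.10, other probe -0.03).

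Regulators of RNA decay, cytokine signalling and B cell fate were among the largest rises. ZC3H12A, an RNase that degrades inflammatory mRNAs, read 10.88, 10.98 and 10.41 on the Dex arrays, against 7.88, 8.01 and 8.08 on the untreated arrays. Its rise was 6.81-fold (2.77 ± 0.15), smallest on Dex replicate 3. With it ZFP36L2 (1.13 ± 0.10) and ZFP36 (0.74 ± 0.13), zinc finger proteins that bind AU-rich mRNAs, rose, and none of the 8 measured genes of this family fell. LY86, the secreted partner of the Toll-like receptor homologue CD180, read 10.37, 10.21 and 10.64 on the Dex arrays, against 7.54, 7.98 and 7.98 on the untreated arrays. The change was 5.94-fold (2.57 ± 0.18). BCL6, the repressor that directs germinal centre B cells, read 9.80, 9.44 and 9.37 on the Dex arrays, against 6.99, 6.96 and 7.13 on the untreated arrays. Its untreated signal did not exceed background on any array, and it rose at least 5.2-fold. BACH2, a repressor that opposes plasma cell differentiation (1.47 ± 0.10, other probes 0.06 and 0.99), and GCSAM, a germinal centre signalling protein (1.33 ± 0.10), rose also. Of 15 measured B cell and germinal centre genes 7 rose and 2 fell, namely SYK (-0.48 ± 0.13), a kinase of the B cell receptor pathway, and FCRLA (-0.42 ± 0.10), which did not pass with median centring. The rises include BCL6, which met the background filter through its Dex arrays alone. The count of rises was 4 without Dex replicate 1 and 4 without Dex replicate 3. The genes of the plasma cell programme did not move 1 way. MAF, the oncogenic transcription factor of these cells, rose (0.98 ± 0.10) together with NUAK1, an AMPK-related kinase (1.43 ± 0.14), and POU2AF1, a B cell coactivator (-0.53 ± 0.10), and JCHAIN, which links IgA and IgM chains (-0.42 ± 0.08), fell. CCND2, the cyclin that MAF activates, fell too (-0.76 ± 0.09).

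Chemokine and cytokine receptors changed in both directions. CXCR4, the receptor that holds plasma cells in bone marrow, read 11.98, 11.99 and 12.03 on the Dex arrays, against 9.77, 9.90 and 10.08 on the untreated arrays. It rose 4.23-fold (2.08 ± 0.15, other probe 2.25). CXCR3, the receptor of interferon-induced chemokines, fell (-1.12 ± 0.17), as did CCL3 (-0.98 ± 0.19), a chemokine that myeloma cells secrete, and CXCL10 (-0.91 ± 0.18). The probes of CCL3 and its near-identical copy CCL3L1 (-0.87 ± 0.20) may share signal. CXCL13, the chemokine that draws B cells to follicles, was below background in untreated cells and rose at least 3.98-fold. Of 23 measured genes of IL-6 and JAK-STAT signalling 8 rose and none fell: IL6ST (gp130), the shared receptor subunit, read 12.60, 12.55 and 12.06 on the Dex arrays, against 11.14, 11.10 and 10.75 on the untreated arrays. It changed by 1.41 ± 0.15, with other probes at 0.65 and 0.95, and STAT6 (1.06 ± 0.10) and JAK1 (0.55 ± 0.13) rose with it. The count was 5 without Dex replicate 1, Dex replicate 2, untreated replicate 1 or untreated replicate 3. Of 26 interferon-stimulated genes 8 rose, led by ISG20, an RNase (1.19 ± 0.12), and IFI44 (1.01 ± 0.12), and IFIT1 (-0.57 ± 0.14) and HERC5 (-0.41 ± 0.11) fell, HERC5 not with median centring. TGFBR2, the ligand-binding TGF-beta receptor, was 4.03-fold higher (2.01 ± 0.13).

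The MHC class II genes, which present peptides to T cells, fell. Of 13 measured members 10 were lower (against 14.6% of all genes) and HLA-DOB, which modulates peptide loading, was higher (0.55 ± 0.15), with a median of -0.41. HLA-DOB did not pass without Dex replicate 1, Dex replicate 2 or untreated replicate 3. HLA-DPA1 read 9.74, 9.89 and 10.12 on the Dex arrays, against 11.23, 11.11 and 10.88 on the untreated arrays. This was a change of -1.16 ± 0.12, and HLA-DMA (-1.09 ± 0.14), the peptide exchange factor, HLA-DRA (-0.95 ± 0.12) and CD74 (-0.76 ± 0.12), the invariant chain, fell likewise. The DRB genes resemble each other and their probes may share signal. In contrast, 1 of 15 class I and peptide loading genes rose and 1 fell. CD38, the surface antigen that therapeutic antibodies bind, read 8.19, 8.34 and 8.42 on the Dex arrays, against 9.27, 9.45 and 8.87 on the untreated arrays. It fell by 0.88 ± 0.17, and CD70, the ligand of CD27, fell by 1.13 ± 0.13.

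Genes of mitosis fell nearly throughout. Of the 207 genes that fell over 2-fold, 87 (42%) belonged to 6 lists of proliferation genes. These lists hold 216 of the 10774 genes measured, and 1.92% of all genes fell over 2-fold. They were chosen with earlier results of these data known. Of 62 measured genes of mitosis and the spindle checkpoint 61 fell and none rose, 46 of them over 2-fold, and the median change was -1.29 against 0.02 over all genes. BUB3 fell least among the 61 (-0.36 ± 0.10). PBK, a kinase active in mitosis, read 8.14, 8.75 and 8.82 on the Dex arrays, against 10.52, 10.57 and 10.37 on the untreated arrays. It fell by 1.91 ± 0.14 on the log2 scale. HMMR, a microtubule-binding protein of the spindle, read 8.86, 9.18 and 9.20 on the Dex arrays, against 10.97, 11.01 and 10.77 on the untreated arrays. It fell by 1.84 ± 0.11. CDC20, which activates the anaphase-promoting complex, read 10.06, 10.37 and 10.67 on the Dex arrays, against 12.18, 12.03 and 12.20 on the untreated arrays. The change was -1.77 ± 0.12, and those of the cyclin gene CCNB2 (-1.68 ± 0.10), the checkpoint kinase gene BUB1 (-1.71 ± 0.14), the centromeric histone gene CENPA (-1.74 ± 0.11), the topoisomerase gene TOP2A (-1.66 ± 0.11) and BIRC5 (-1.70 ± 0.11), which encodes survivin, lay close to it. The other probes of CENPA and BIRC5 fell less, by 1.13 and 0.43. The proliferation marker MKI67 fell by 0.90 ± 0.10. In these genes Dex replicate 1 was lowest in 54 of 62, with a median of -1.42 below the untreated mean against -1.22 on Dex replicate 2 and -1.19 on Dex replicate 3.

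DNA replication fell with mitosis, and by a lesser median. Of 50 measured genes 42 fell and none rose, 20 over 2-fold, with a median of -0.89. CDC45, part of the replicative helicase, read 9.13, 9.30 and 9.60 on the Dex arrays, against 11.02, 10.99 and 11.10 on the untreated arrays. It fell by 1.69 ± 0.12. Of its partners GINS2 changed by -1.51 ± 0.13 and the MCM subunits MCM4, MCM2, MCM6, MCM5, MCM7 and MCM3 by -1.61, -1.25, -1.19, -1.10, -1.10 and -0.90. PCNA, the sliding clamp, changed by -0.89 ± 0.14. Of 37 DNA repair genes 20 fell, among them FANCI (-1.54 ± 0.11), EXO1 (-1.48 ± 0.12), RAD51AP1 (-1.43 ± 0.13), BRCA1 (-0.95 ± 0.09) and the checkpoint kinase CHEK1 (-1.45 ± 0.11). The nucleotide excision repair genes XPC (0.67 ± 0.10) and ERCC1 (0.61 ± 0.11, other probes 0.13, 0.17 and 0.45) rose, and PMS2 rose (0.30 ± 0.11). Of 30 nucleotide and folate enzymes 17 fell, or 12 with median centring. RRM2, the regulated subunit of ribonucleotide reductase, read 9.20, 9.72 and 10.04 on the Dex arrays, against 11.38, 11.36 and 11.72 on the untreated arrays. It fell by 1.83 ± 0.16, and RRM1, the large subunit of the same enzyme, fell by 1.38 ± 0.10.

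The regulators of these programmes split. Of 18 E2F, RB and FOXM1 family genes 9 fell, among them E2F2 (-1.27 ± 0.14), E2F7 (-1.16 ± 0.15), LIN9 (-0.82 ± 0.10) and FOXM1 (-0.80 ± 0.10), while RBL2 (p130), the pocket protein of resting cells, rose (0.45 ± 0.11). Of 19 G1 cyclins, kinases and inhibitors 10 fell, with CDKN3 (-1.48 ± 0.11) and CKS1B (-1.35 ± 0.14) leading. Of the D-type cyclins CCND3 read 12.23, 12.10 and 12.26 on the Dex arrays, against 10.88, 10.84 and 11.04 on the untreated arrays. It rose by 1.28 ± 0.12, whereas CCND1 (-0.82 ± 0.09) and CCND2 fell. MYC is opposed by the MXD repressors: MXD4 rose (1.12 ± 0.10) and MXD3, which cycling cells express, fell (-0.89 ± 0.15). Of 27 DNA and histone methylation enzymes 8 fell, led by UHRF1, which recruits DNMT1 to replicated DNA (-1.48 ± 0.15, other probe -0.53), SUV39H1 (-1.26 ± 0.12) and EZH2 (-1.11 ± 0.15), and KDM5B, a histone demethylase, rose (1.26 ± 0.09). Histone genes moved in both directions. The variants H2AZ1 (-0.97 ± 0.07), H2AX (-0.86 ± 0.14) and H2AZ2 (-0.46 ± 0.09) and the replication-dependent H4C3 (-0.93 ± 0.10) fell, while H2BC12, H2BC5 and H2AC6 rose over 2-fold. H2BC12 read 11.19, 11.02 and 10.36 on the Dex arrays, against 9.38, 9.35 and 8.86 on the untreated arrays. It changed by 1.66 ± 0.19, with replicate 3 lowest in both groups. Of 18 histone genes measured 6 rose, a count of 3 without Dex replicate 1 or Dex replicate 2, and 5 fell.

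**Figure D3:**
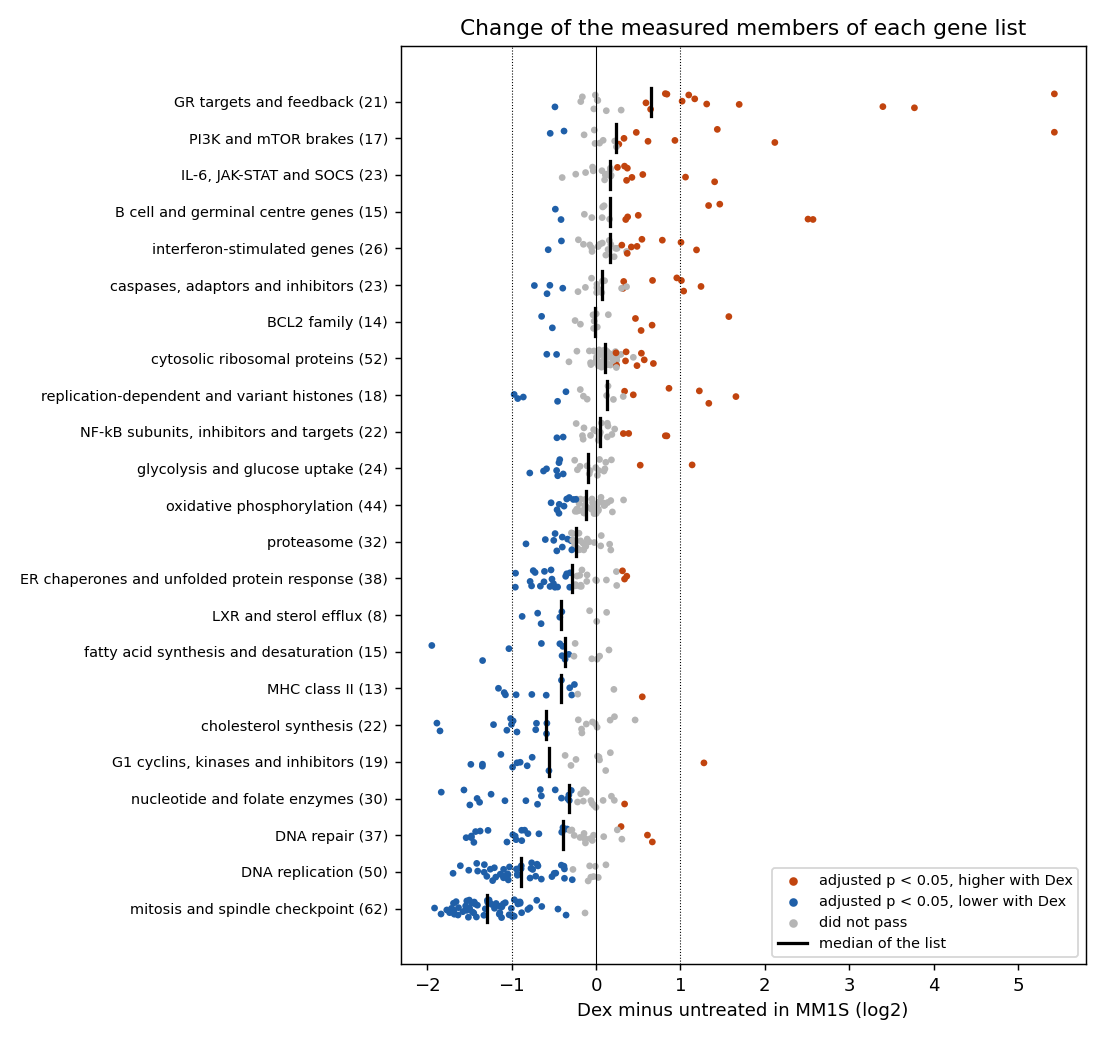
Change with Dex in MM1S (log2, x axis) of every measured member of 23 gene lists (rows, number measured in brackets); orange and blue points passed at an adjusted p under 0.05 as higher or lower, grey points did not, and black bars are the medians. The median is lowest for mitosis (-1.29) and DNA replication (-0.89) and highest for GR targets (0.65).

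Promoter motifs were counted over all measured members of a list, whether or not a member passed the test. Promoters were read from RefSeq (GRCh38.p14) as 250 bases before to 50 bases after the start of each gene, and 8699 of the 10774 genes matched. The cell cycle genes homology region (CHR, TTTGAA), an element that the DREAM complex and its relatives bind in mitotic genes, was present on either strand in 39 of 52 mitosis promoters (75.0%), 1 of 43 DNA replication promoters (2.3%) and 10.4% of the promoters of all genes measured. The E2F motif (TTTGGCGC or TTTCGCGC, either strand) was present in 3 of 52 mitosis promoters (5.8%) and 11 of 43 DNA replication promoters (25.6%), and in 2.2% of all genes measured. The CCAAT box that NF-Y binds was present in 75.0% of the mitosis, 53.5% of the DNA replication and 70.0% of the 20 cholesterol synthesis promoters, against 37.2% over all genes measured. Of 170 promoters of genes that fell over 2-fold 65.3% held CCAAT, 31.2% the CHR and 8.8% the E2F motif. Of 99 promoters of genes that rose over 2-fold 37.4% held CCAAT, 17.2% the CHR and 3.0% the E2F motif. In all 27305 promoters of the table the shares were 15.6% for the CHR, 1.2% for E2F and 35.6% for CCAAT. A loose form of the palindromic glucocorticoid response element was present in 1 of the 99 promoters of genes that rose (1.0%). It was in none of the 170 of genes that fell and in 0.3% of all genes measured, too rare for these counts to tell the sets apart. The forkhead motif GTAAACA was present in 3.0% of the genes that rose and 2.5% of all genes measured, and the E-box CACGTG in 5.1% and 10.2%. The sterol regulatory element of the LDL receptor gene was present in 1 of the 20 cholesterol synthesis promoters and in 0.1% of all genes measured. No motif is part of another, and a match is a description of the letters only.

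The CHR of 5 mitotic genes named above is shown in windows of the sense strand. Capitals mark every match of the CHR in the window and no other motif. The CHR was present in 39 of 52 mitosis promoters, and CCAAT in as many. The HMMR window holds a pair of copies in a row. TOP2A carries it on the other strand, as TTCAAA. The windows lie at chr5:163460598-163460627, chr1:43358904-43358933, chr2:26786026-26786055, chr15:59105105-59105134 and chr17:40418030-40418059 (GRCh38.p14), before the start of the gene, on the plus strand except for TOP2A on the minus strand.
HMMR: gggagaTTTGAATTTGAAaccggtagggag
CDC20: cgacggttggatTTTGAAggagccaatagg
CENPA: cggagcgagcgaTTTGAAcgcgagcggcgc
CCNB2: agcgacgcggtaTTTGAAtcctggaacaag
TOP2A: ctgattggtttaTTCAAAcaaaccccggcc
HMMR, CDC20 and CCNB2 fell by the values given above, and in 4 of the 5 genes the site begins within 65 bases of the start, at 22 (HMMR), 65 (CDC20), 18 (CENPA) and 29 (CCNB2) bases before it.

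The E2F motif of 4 DNA replication genes that fell is shown likewise, around the match nearest to the start. In POLE2 the match is on the other strand, and in MCM6 a match on each strand overlaps the other, so that the capitals span both. The windows lie at chr2:135876511-135876540, chr14:49688201-49688230, chr6:52284728-52284757 and chr11:65261898-65261927, on the minus strand for MCM6, POLE2 and MCM3 and on the plus strand for POLA2.
MCM6: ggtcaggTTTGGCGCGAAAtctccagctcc
POLE2: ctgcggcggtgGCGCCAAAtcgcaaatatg
MCM3: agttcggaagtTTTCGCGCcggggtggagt
POLA2: ttggctcccggTTTCGCGCatgcgtgcact
These genes, which encode helicase and polymerase subunits, changed by -1.19 ± 0.12, -0.93 ± 0.10, -0.90 ± 0.10 and -1.10 ± 0.14.

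**Figure D4:**
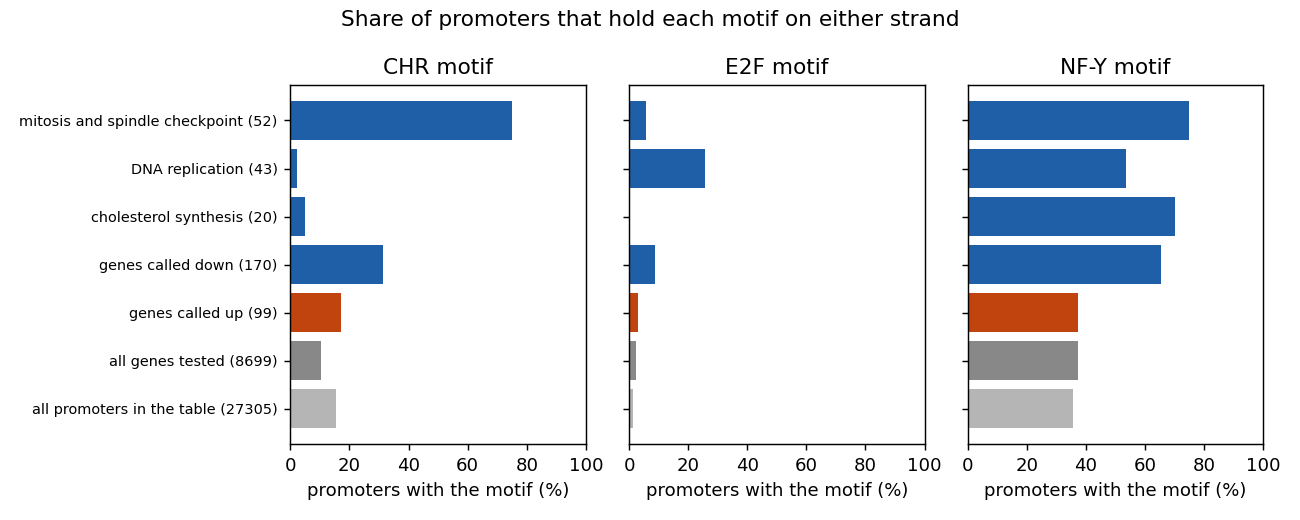
Share of promoters (%, x axis) that hold the CHR, E2F or NF-Y motif on either strand, by gene set (rows, number of promoters in brackets). The CHR reaches 75.0% in mitosis genes and 2.3% in DNA replication genes, where the E2F motif is at 25.6%.

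Genes of lipid synthesis fell as well. Of 22 measured genes of cholesterol synthesis and its control 12 fell and none rose (54.5% against 14.6% of all genes, median -0.59). INSIG1, the sterol sensor that retains SREBP in the endoplasmic reticulum, read 10.72, 11.17 and 11.48 on the Dex arrays, against 12.97, 12.90 and 13.15 on the untreated arrays. It fell by 1.89 ± 0.15. SREBF1, the gene of the SREBP-1 transcription factor, read 7.49, 8.03 and 8.09 on the Dex arrays, against 9.64, 9.67 and 9.85 on the untreated arrays. The change was -1.85 ± 0.17, and DHCR7 (-1.22 ± 0.16), HMGCS1 (-1.06 ± 0.11), FDPS (-1.01 ± 0.14) and SQLE (-0.98 ± 0.13), enzymes of the pathway, fell too. Of 15 fatty acid synthesis and desaturation genes 9 fell, or 6 with median centring, and none rose. SCD, the stearoyl-CoA desaturase, read 10.27, 10.996 and 11.21 on the Dex arrays, against 12.77, 12.76 and 12.78 on the untreated arrays. It fell by 1.95 ± 0.16, and FADS1 (-1.34 ± 0.12), FASN (-1.03 ± 0.15) and ACACA (-0.65 ± 0.10) followed. The LXR targets ABCA1 (-0.69 ± 0.08) and ABCG1 (-0.65 ± 0.09, other probes 0.21 and -0.51), which export sterols, and MYLIP (-0.88 ± 0.11), which degrades the LDL receptor, fell as well, as did 5 of the 8 measured genes of this list. In fatty acid oxidation 4 of 14 genes rose and 2 fell: SLC25A20, the carnitine carrier of mitochondria, rose (1.08 ± 0.11), and HADH fell (-0.57 ± 0.09).

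The secretory and biosynthetic machinery changed less per gene. Of 38 chaperones of the endoplasmic reticulum and unfolded protein response genes 19 fell and 3 rose, none over 2-fold, with a median of -0.28. HSP90B1 (GRP94) read 13.35, 13.33 and 13.43 on the Dex arrays, against 14.08, 13.995 and 14.01 on the untreated arrays. It fell by 0.66 ± 0.07, and FKBP11 (-0.96 ± 0.13), MANF (-0.78 ± 0.10), DNAJB11 (-0.72 ± 0.10) and HSPA5 (BiP, -0.49 ± 0.13) fell also. Of 32 proteasome subunits 11 fell and none rose. That count was 7 without Dex replicate 1 or untreated replicate 1, 6 without untreated replicate 2 and 4 with median centring. Of 52 cytosolic ribosomal proteins 8 rose and 2 fell (15.4% and 3.8%, against 15.6% and 14.6% of all genes). Median centring turned the count of rises to 26, and it was 5 and 4 without untreated replicates 1 and 3. In serine synthesis PHGDH, the enzyme of the first step, read 8.96, 9.29 and 9.77 on the Dex arrays, against 11.10, 10.91 and 11.35 on the untreated arrays. It fell by 1.78 ± 0.18, and PSAT1, of the next step, fell by 1.24 ± 0.16. Of the 18 measured genes of the ATF4 stress response and serine synthesis 7 fell, with ATF3, a stress-induced factor, among them (-0.97 ± 0.17). Of 14 amino acid transporters 6 fell, among them the glutamine transporter SLC1A5 (-0.71 ± 0.14), and 2 rose. Of 18 aminoacyl-tRNA synthetases 2 fell (11.1%, under the 14.6% of all genes), AARS1 for alanine among them (-0.97 ± 0.12), and SARS1 for serine rose (0.44 ± 0.13). The count of synthetases that fell was 4 without replicate 1 of the Dex-treated MM1R arrays and 1 without untreated MM1S replicate 3, and SARS1 did not pass without Dex replicate 3 or untreated replicate 1. Of 24 glycolysis genes 8 fell, among them ENO2 (-0.79 ± 0.11) and LDHA (-0.59 ± 0.08, other probes -0.71 and -0.11), and 2 rose, SLC2A3 (0.52 ± 0.11), a glucose transporter, and PFKFB2 (1.14 ± 0.09, other probe 0.66), whose product raises fructose bisphosphate. The glycolysis count was 5 without Dex replicate 1, without untreated replicate 1 or with median centring. In oxidative phosphorylation 9 of 44 genes fell, 5 without Dex replicate 1 or untreated replicate 2, 4 without Dex replicate 2 and 3 with median centring, a share near or under that of all genes in most of these settings.

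Genes of the death machinery went both ways. BMF, a BH3-only protein that counters BCL2, read 9.82, 9.92 and 9.80 on the Dex arrays, against 8.10, 8.33 and 8.39 on the untreated arrays. It rose 2.98-fold (1.57 ± 0.11, other probe 1.76). The survival genes MCL1 (0.66 ± 0.13, other probe 0.09) and BCL2 (0.53 ± 0.14, other probes 0.61 and -0.02) rose. BCL2L1, also a survival gene, fell (-0.52 ± 0.16, other probe -0.56), as did BCL2L12 (-0.65 ± 0.10, other probes -0.16 and -0.67). BCL2L1 lost its call when the arrays were centred on their medians. Leaving out Dex replicate 3 had the same effect, as had leaving out untreated replicate 2. Of 14 members of the family 4 were higher and 2 lower. Of 23 caspases, adaptors and inhibitors 7 rose and 4 fell. The inflammatory caspase genes CASP1 (1.24 ± 0.12) and CASP4 (1.04 ± 0.13, other probe 0.08), the adaptor gene TRADD (0.96 ± 0.11) and CFLAR, an inhibitor of CASP8 (1.01 ± 0.21), rose, and CASP2 (-0.58 ± 0.12) and the TNF receptor gene TNFRSF1B (-0.73 ± 0.10) fell. Of 21 p53 targets 4 rose, namely SESN1, TP53INP1 (0.85 ± 0.11), XPC and TP53I3 (0.59 ± 0.10, other probe 0.03), and PPM1D fell (-0.34 ± 0.09, not with median centring), a share of rises of 19% beside 15.6% of all genes. In autophagy the membrane protein gene MAP1LC3B (0.63 ± 0.10) and BECN1 (0.61 ± 0.10) rose, and the lysosomal genes GLA (-1.07 ± 0.11) and CTSL (-0.69 ± 0.13) fell. No metallothionein of 4 measured passed (limma adjusted p under 0.05).

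Large changes were also seen in HES6 and other single genes. Of 13 measured Notch and HES genes, HES6 among them, 5 fell (38.5%, against 14.6% of all genes) and 1 rose. That count of falls was 3 without untreated replicate 1 and 3 with median centring. HES6, a repressor of the hairy and enhancer of split family, read 9.20, 9.68 and 10.18 on the Dex arrays, against 11.95, 12.01 and 11.90 on the untreated arrays. It fell by 2.27 ± 0.17, the largest fall. TLE1, a co-repressor that works with HES factors, rose (1.48 ± 0.11). P4HA1, a subunit of the collagen prolyl hydroxylase, rose 4.69-fold (2.23 ± 0.16), SLC22A23, a transporter family gene, 4.11-fold (log2 2.04, other probe 1.04), N4BP2L1 3.56-fold and the noncoding LINC00623 3.43-fold. TMSB15A, a thymosin that binds actin, fell by 1.88 ± 0.13 and MELK, a kinase of cycling cells, fell by 1.73 ± 0.12. The TMSB15 genes are nearly identical and their probes may share signal.

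The size of the response differed between the 3 Dex arrays. Among the 207 genes that fell Dex replicate 1 was the lowest Dex array in 189 and Dex replicate 3 the highest in 157, with median changes from the untreated mean of -1.48, -1.28 and -1.12 on replicates 1, 2 and 3. Among the 115 that rose Dex replicate 1 was the highest in 72 and Dex replicate 3 the lowest in 88 (median changes 1.40, 1.28 and 1.12). Over all 10774 genes Dex replicate 1 was the lowest in 3482. Without Dex replicate 1 the calls numbered 180 lower and 92 higher, and without Dex replicate 3 243 lower and 127 higher. The Dex and untreated arrays did not overlap in all 207 and in 114 of the 115, against 21.8% (Dex lower) and 25.4% (Dex higher) of all genes. The genes were called from the same arrays, so that this gap largely follows from the calls.

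In MM1R cells the same treatment gave no gene that passed the test at any fold (0 of 10774, limma, lowest adjusted p 0.996), with 390 genes at an unadjusted p under 0.05. The genes that changed in MM1S had a median MM1R change of -0.05 for rises and 0.01 for falls, and none of them moved beyond 0.44 in MM1R. Tested directly, the effect of Dex differed over 2-fold between the lines for 352 genes (3.27%), 121 (1.12%) with a more positive and 231 (2.14%) with a more negative change in MM1S. These included 107 of the 115 genes that rose and 191 of the 207 that fell. For 44 of 62 mitosis genes, 24 of 50 DNA replication genes and 6 of 22 cholesterol genes the change was more negative in MM1S by over 2-fold, and for 8 of 21 GR targets it was more positive. NFKBIA, which read 0.36 in MM1R, was a GR target without a passing difference (0.48, limma adjusted p = 0.152).

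**Figure D5:**
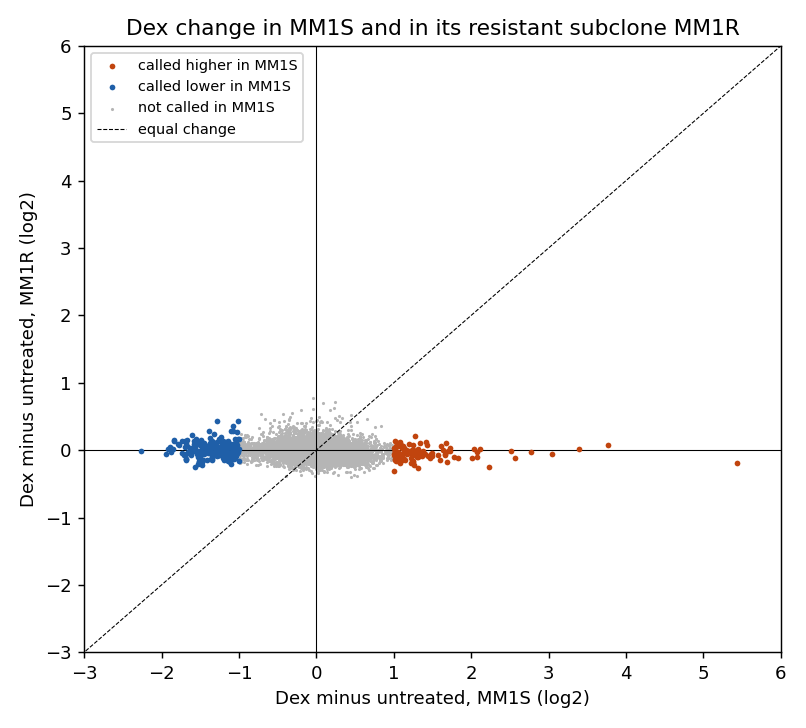
Dex change in MM1S (log2, x axis) and in MM1R (log2, y axis) of each of 10774 genes; orange and blue points are the 115 and 207 genes called higher and lower in MM1S, and the dashed line marks equal change. The called genes spread along the x axis and stay within 0.44 of 0 on the y axis.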

How the data were processed

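Total RNA of MM1S and MM1R cells was hybridized to Illumina HumanHT-12 arrays. The authors read the beads with beadarray, quantile normalized all arrays and deposited normalized log2 values, used here as deposited, beside non-normalized log2 values with a detection p-value per probe deposited by the authors. The submitters' notes name limma 3.14.1. Of 47224 probes 4 with a missing value were left out, and 30107 carry 1 gene symbol, 8 several and 17109 none in the platform annotation. Probes with a detection p-value under 0.05 on at least 3 of the 6 MM1S arrays were kept. All 12 arrays of the Dex experiment were fitted as 4 groups (limma 3.58.1 in R 4.3.3, lmFit and eBayes with trend), with Benjamini-Hochberg adjustment over the 19236 probes kept, of which 4962 have no single symbol and were not counted as genes. A gene is represented by its probe with the highest mean over the 6 arrays, and other probes are given for some genes only. Of 117 genes changed over 2-fold that have other probes, 112 had the same direction on every probe. A gene below background in untreated cells has a lower bound as its fold, against the lowest signal over background. Array number limits the precision, with a median SE of 0.101, and p-values measure the spread between these cultures. Changes were simulated for the MM1S comparison in 67 probes at 1.5-fold and 67 at 2.5-fold, among 19236. The noise was independent between probes and arrays, without the differences in response between the Dex arrays and with far fewer changes than in the data. In that simpler setting the fit recovered 88.06% of the 1.5-fold changes and 100% of the 2.5-fold changes at an adjusted p under 0.05.

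The members and the 63 lists were chosen with earlier results of these data known. Named genes were the 15 largest rises and falls without overlap, up to 4 members of a list by smallest adjusted p and up to 2 that passed the other way, the 5 largest differences each way, NR3C1 and the markers. Further genes completing a complex or pathway (BCL2, BRCA1, BUB3, CCL3L1, CCND1, CD74, CFLAR, FDPS, HSPA5, MCM2, MCM3, MCM5, MCM6, MCM7, MKI67, PCNA, PMS2, POLA2, POLE2 and SQLE) were added after their values were seen. Alternatives covered normalization, background correction, filters, the arrays fitted, array weights, the variance trend, replicate blocks, thresholds, the probe of a gene and leaving out each array. Python 3.11.15 with matplotlib 3.10.9 made the plots.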

Additional observations from a re-analysis of the deposited data

Results flagged for a closer look

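The effect of Dex differed between MM1S and MM1R cells by a direct test of the difference (limma, adjusted p under 0.05 and over 2-fold, n = 3 arrays per group), more positive in MM1S for 121 genes and more negative for 231. The largest positive differences in log2 were 5.63 for DDIT4, 3.70 for TSC22D3, 3.38 for FKBP5, 3.10 for FBXO32 and 2.79 for ZC3H12A. The largest negative differences were -2.26 for HES6, -1.99 for HMMR, -1.97 for RRM2, -1.94 for INSIG1 and -1.92 for PBK. In MM1R cells these 10 genes changed by at most 0.20 in size.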

How the results depend on the processing

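Genes lower over 2-fold outnumbered higher ones under every alternative run. At any fold the order turned in 3 cases, with 1686 higher and 1577 lower genes in the fit reported, 1211 and 1237 without Dex replicate 1 and 1219 and 1272 without Dex replicate 2. Normexp background correction gave 230 higher and 392 lower genes over 2-fold in MM1S and 303 and 422 for the difference between the lines. A fold limit of 1.5 gave 451 and 603, and 519 and 672 for the difference. The third case was an adjusted p under 0.001, which left 552 higher and 676 lower genes at any fold. Without 1 array the counts ranged over 92 to 127 higher and 180 to 243 lower genes over 2-fold, 1211 to 1877 and 1237 to 1733 at any fold, and 105 to 146 and 204 to 261 for the difference. The other alternatives kept each of these counts within 1.5 times of the main one. The replicate numbers were not taken as pairs, and these values cannot decide whether they mark pairs. Same-numbered Dex and untreated arrays deviated with r of 0.0809, 0.109 and 0.235 in MM1S and 0.064, 0.391 and 0.304 in MM1R. Differently numbered arrays deviated with r between -0.166 and 0.11 in MM1S and between -0.386 and 0.075 in MM1R. With a replicate block by the titles the counts over 2-fold were 115 higher and 207 lower, as without it. At any fold that block gave 1940 higher and 1791 lower genes. For single named genes 6409 comparisons with an alternative kept the call, 279 lost it and 9 gained it. Values near background are limited by signal, and 5 of the genes that rose have only a lower bound. Of these BCL6 and CXCL13 no longer met the background filter once a Dex array was left out. Counts of single lists stayed within 1.5 times in 3017 comparisons and moved further in 385, the cause of which was not tested.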

Other observations

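Of all genes tested 15.6% rose and 14.6% fell at any fold, the shares against which the counts of these small groups are read. Of 10 measured Kruppel-like factors 4 rose and none fell, with KLF13 (0.65 ± 0.09) next to KLF9 and KLF15. Of 12 genes of LY86, CD180 and the Toll-like receptors 4 rose, among them UNC93B1, which carries these receptors to endosomes (0.49 ± 0.13), and MYD88, their adaptor (0.48 ± 0.09), while TLR7, a receptor of single-stranded RNA, fell (-0.97 ± 0.14). Of 21 integrins and adhesion genes 6 fell and 2 rose: ESAM fell (-0.68 ± 0.11) besides PECAM1, and ICAM3 (0.79 ± 0.09) and the cadherin gene CDH2 (0.73 ± 0.11) rose. That count of falls was 3 with median centring. Of 14 circadian clock genes 3 rose and 3 fell. NFIL3, a repressor of D-box genes (0.80 ± 0.13), and CRY2 (0.48 ± 0.11) rose, and BHLHE40 (-0.61 ± 0.15) and CRY1 (-0.43 ± 0.11) fell, so that the 2 cryptochromes moved in opposite directions. Of 22 NF-kB genes 4 rose (18.2%) and 2 fell (9.1%), near or under the shares of all genes. Of 25 oxidative stress genes 7 fell and 3 rose, with CAT (0.58 ± 0.12, other probe 0.27) and PRDX6 (0.53 ± 0.09) higher and GSTO1 (-0.43 ± 0.10) lower. The count that fell was 4 without Dex replicate 1, Dex replicate 2 or untreated replicate 2, and 2 with median centring. BTG1 (0.66 ± 0.09) and TOB2 (0.48 ± 0.10), antiproliferative genes, rose and BTG3 (-0.99 ± 0.11) fell. Of 14 nuclear receptors and partners RARA alone passed (0.60 ± 0.12), and of 21 myeloma surface antigens 4 rose (19%) and 2 fell (9.5%, or 4 genes without untreated replicate 3), again close to the shares of all genes, with CD86 (0.74 ± 0.10) and CD55 (0.53 ± 0.09) higher.

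Of the genes changed over 2-fold, 78 that rose and 98 that fell were in none of the lists, those of cell type markers left aside. The following were picked from them after their values were seen. MYB, a transcription factor of blood cell precursors, fell (-1.59 ± 0.16), and so did CAV1 (-1.28 ± 0.14) and CAV2 (-1.34 ± 0.12), the caveolins, CYP26A1, which degrades retinoic acid (-1.68 ± 0.16), and the transferrin receptor gene TFRC (-1.10 ± 0.14). SPRY1 (1.73 ± 0.15) and SPRED1 (1.10 ± 0.12), inhibitors of the RAS to ERK pathway, rose, as did the kinase genes PRKCB (1.25 ± 0.16), FYN (1.19 ± 0.12) and PTK2B (1.37 ± 0.12) and the interferon gamma receptor gene IFNGR1 (1.08 ± 0.11).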
